A study of Mus musculus with 8 samples.

Results

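The 33 genes described here encode the enzymes and carriers that handle pyruvate and run the tricarboxylic acid (TCA) cycle, out of 31053 genes in the deposited table of counts. They were chosen by function, from the pyruvate dehydrogenase complex and its regulators through pyruvate transport, anaplerosis and the cycle to the transaminases that link it to amino acids. Expression was measured by bulk RNA-seq in brown adipose tissue (BAT) of 4 WT and 4 Ucp1Δ/Δ mice, labelled ATGLKO, all of strain C57BL6/J and given as 10 weeks old in the labels, although the study's own text gives a younger age. The methods state that all mice of the study were male. They also place tissue harvesting after a fast, in a sentence that follows the description of obese db/db mice. Whether this covers the WT and Ucp1Δ/Δ mice used here is not plainly stated. In Ucp1Δ/Δ mice a floxed Pnpla2, which encodes the triglyceride lipase ATGL, is deleted by a Cre recombinase under the Ucp1 promoter, so cells of the tissue that do not express UCP1 keep the gene. Whether the WT mice carried the floxed allele or Cre is not given in the sources used here. As cell type the labels give the stromal vascular fraction, the cells left once adipocytes are removed, whereas the adipocyte genes Adipoq and Plin1 and the brown adipocyte gene Ucp1 were read in every mouse, at 574 to 1416, 257 to 869 and 1291 to 4109.6 CPM (counts scaled to library size) respectively, so the libraries hold adipocyte RNA.

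Pyruvate, made from glucose and lactate, enters mitochondria through a carrier built from MPC1 and MPC2. There the pyruvate dehydrogenase complex converts it to acetyl-CoA, under the control of kinases that switch the complex off and phosphatases that switch it on, or pyruvate carboxylase turns it into oxaloacetate. The TCA cycle oxidises acetyl-CoA and passes the electrons to the respiratory chain, and brown adipocytes, which burn fatty acids and glucose to make heat, are rich in it. The fatty acids that ATGL releases from stored triglyceride reach the same cycle through beta-oxidation.

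The libraries held 2017697 to 3115956 counts in WT and 2240612 to 2941799 counts in Ucp1Δ/Δ, of which mitochondrially encoded genes took 38.4% to 45.6%, and 3 counts correspond to 0.963 to 1.49 CPM. Pnpla2 fell, with a log2 fold change (log2FC, Ucp1Δ/Δ over WT, throughout) of -2.62. Markers of other cells moved with genotype. Markers are counted here at an adjusted p under 0.05, where 13.3% of all genes tested were higher and 7.63% lower. Of the macrophage markers 11 of 13 tested were higher, their summed level going from 125 to 189 CPM in WT mice to 1108 to 1806 CPM in Ucp1Δ/Δ mice, and of the fibroblast markers 9 of 10 were higher, at 380.4 to 584 CPM against 1177 to 2327 CPM. Of 12 brown adipocyte markers 4 were lower and 1 higher (7303 to 16801 CPM against 5957 to 9802 CPM), of 9 general adipocyte markers 3 were lower and 1 higher (14741 to 16781 CPM against 9659 to 13437 CPM, without overlap), and none of the 9 endothelial or 14 skeletal muscle markers tested passed. No marker was at 0 in all mice, and skeletal muscle markers differed widely between mice of both genotypes, at 54.4 to 2749 CPM in WT and 113 to 3455 CPM in Ucp1Δ/Δ. In bulk tissue, fewer cells of a type and less RNA per cell cannot be told apart, and the part of these shifts in the results that follow was not tested, except through fits that carry the brown adipocyte or skeletal muscle score as a term.

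Counts sufficed to test 31 of the 33 genes, and 14 of them differed at an adjusted p under 0.05, against 21% of all genes. Every adjusted p given here comes from the quasi-likelihood test of edgeR, adjusted after Benjamini and Hochberg. The main fit was adjusted over all 8930 genes that could be tested. Fits that left out a mouse or used another filter were adjusted over the genes they tested, such as 8972 without Ucp1Δ/Δ mouse 2. SE is the standard error of a log2FC. The 11 genes that fell lay in pyruvate uptake (Mpc1, Mpc2), pyruvate carboxylation and phosphoenolpyruvate formation (Pcx, Pck1), the pyruvate dehydrogenase complex (Pdha1, Pdhb, Dlat, Dld), its regulators (Pdk1, Pdp2) and cytosolic aconitase (Aco1), against 7.63% of all genes lower. The 3 genes that rose were the aspartate transaminases Got1 and Got2 and the NADP-dependent isocitrate dehydrogenase Idh2, against 13.3% of all genes higher (over all genes 1191 were higher and 681 lower, and 1478 and 404 when libraries were scaled by their total counts alone). The median log2FC of the 31 genes was -0.19, with 25 below 0 and 6 above, and that of all genes was -0.0087. The genotypes did not overlap for 10 of the 31 genes, against 23.7% of all genes, 3 being higher and 7 lower, against 14.4% and 9.37%. Without Ucp1Δ/Δ mouse 2 the number of lower genes was 6 rather than 11, against 4.46% of all genes, and the 3 higher genes were called in every fit that left out 1 mouse. At an absolute log2FC above 1, 2 genes were higher, against 9.56% of all genes, and 3 lower, against 2.54%.

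**Figure D1:**
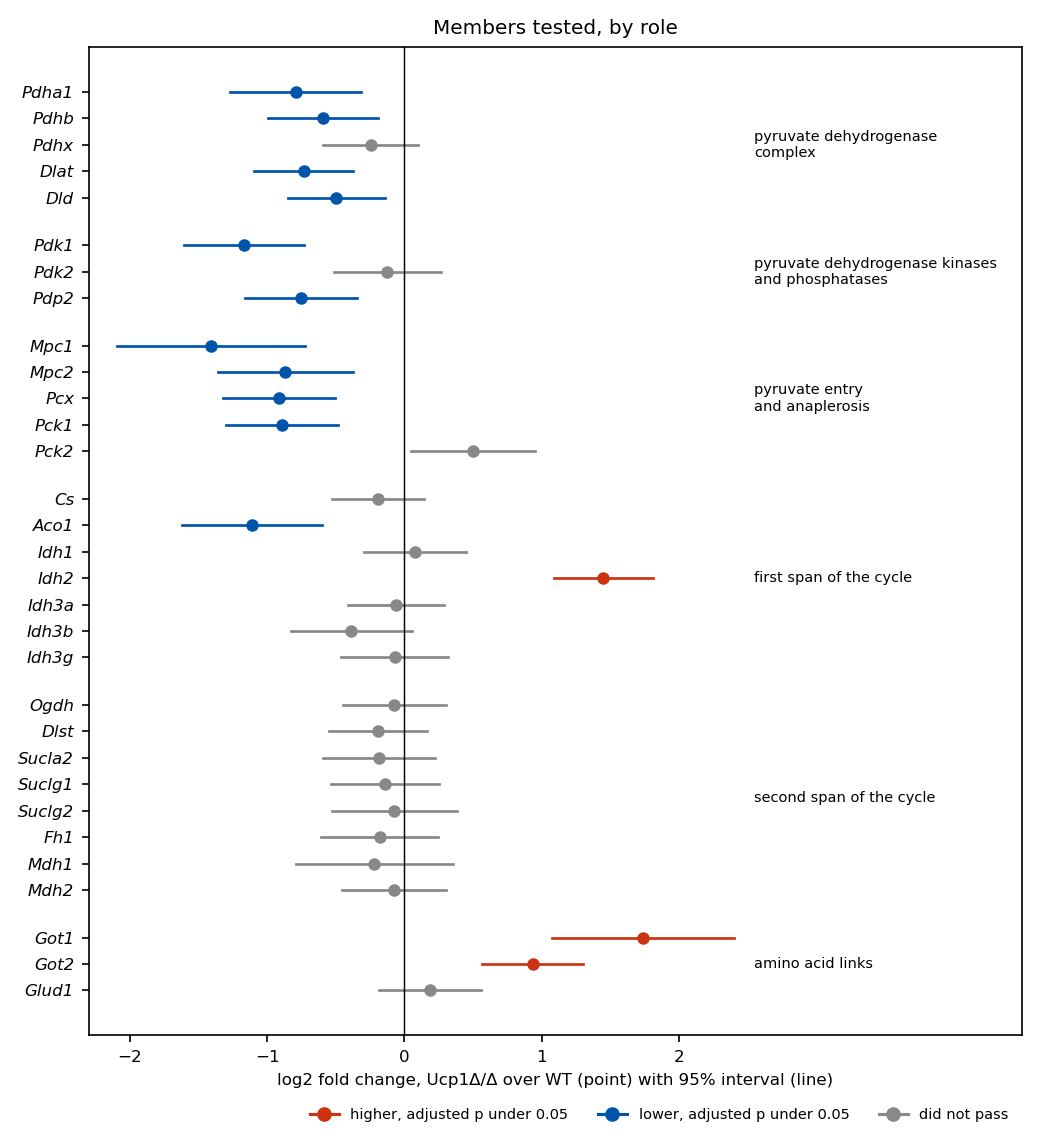
Log2FC of Ucp1Δ/Δ over WT (x axis, points) with 95% intervals (lines) for the 31 genes tested, grouped by role (y axis), coloured by whether the adjusted p was under 0.05. The points of the pyruvate genes lie to the left of 0 except Pck2, and the intervals of Pdhx and Pdk2 reach past 0. The 8 genes of the second span of the cycle have points to the left of 0 and intervals that hold 0. Got1, Got2 and Idh2 lie to the right.

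Windows upstream of the annotated start are shown for the 3 genes that rose and for the pair of genes that fell with the smallest adjusted p (Pdk1 and Pcx), from RefSeq on build GRCm38.p6, 5′ to 3′ on the strand of the gene. Each is cut to the bases that lie before the gene's own annotated span and overlap no annotated exon, and for Pdk1 and Pcx 1 of 2 listed windows is given. Capitals mark a match to 1 of 3 motifs searched on both strands.
Got1 (chr19:43524606-43524855, minus strand): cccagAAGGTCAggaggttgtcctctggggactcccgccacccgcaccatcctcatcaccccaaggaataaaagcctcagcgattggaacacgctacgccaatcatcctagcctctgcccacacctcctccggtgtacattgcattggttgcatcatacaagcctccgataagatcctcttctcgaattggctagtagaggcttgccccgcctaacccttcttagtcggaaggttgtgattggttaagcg
Idh2 (chr7:80115393-80115600, minus strand): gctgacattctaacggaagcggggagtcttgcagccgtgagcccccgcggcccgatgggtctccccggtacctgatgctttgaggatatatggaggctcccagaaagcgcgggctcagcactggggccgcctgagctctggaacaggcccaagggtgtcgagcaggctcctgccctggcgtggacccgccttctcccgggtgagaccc
Got2 (chr8:95888548-95888651, minus strand): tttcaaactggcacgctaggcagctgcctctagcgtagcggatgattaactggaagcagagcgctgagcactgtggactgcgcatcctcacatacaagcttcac
Pdk1 (chr2:71872974-71873223, plus strand): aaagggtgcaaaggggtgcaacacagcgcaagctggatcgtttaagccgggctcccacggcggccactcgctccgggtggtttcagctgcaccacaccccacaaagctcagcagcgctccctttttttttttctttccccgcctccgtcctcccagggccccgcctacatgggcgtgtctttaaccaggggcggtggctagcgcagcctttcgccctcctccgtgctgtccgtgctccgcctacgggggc
Pcx (chr19:4510222-4510471, plus strand): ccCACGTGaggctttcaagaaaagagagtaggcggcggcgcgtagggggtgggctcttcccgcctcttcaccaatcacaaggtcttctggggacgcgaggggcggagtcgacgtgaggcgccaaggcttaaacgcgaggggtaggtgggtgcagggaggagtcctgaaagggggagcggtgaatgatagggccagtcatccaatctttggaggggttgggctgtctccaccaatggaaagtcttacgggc
The motifs were AAGGTCA, the extended half-site bound by estrogen-related receptors, GCATGCG, the core of the NRF1 site, and CACGTG, the E-box, which reads the same on both strands, and none of them contains another. In windows of 300 bases (250 before the start and 50 after it), which 31 of the 33 genes had, AAGGTCA was found for 2 genes (Got1 and Ogdh), against 5.38% of 27025 genes. GCATGCG was found for 3 (Glud1, Ogdh and Pdhb), against 4.01%, and CACGTG for 4 (Ogdh, Pcx, Pdk2 and Pdp2), against 8.09%. Of the genes shown, Got1 held AAGGTCA at position -245 and Pcx held CACGTG at position -248 from the start. Idh2, Got2 and Pdk1 held none of the 3 in these windows. A match describes the letters only, and Ogdh, which held all 3, did not pass the test.

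Both subunits of the mitochondrial pyruvate carrier fell. The level of Mpc1 (ENSMUSG00000023861, chr17:8282904-8297661 on mm10) was 205, 449.8, 197 and 123 CPM in WT mice 1 to 4 and 130.2, 69.7, 87.8 and 79.4 CPM in Ucp1Δ/Δ mice 1 to 4. WT mouse 2 was the highest, 3.67-fold above WT mouse 4, and WT mouse 4 lay just under Ucp1Δ/Δ mouse 1, so the genotypes overlapped at 1 mouse on each side. Its log2FC was -1.41 (SE 0.32, adjusted p = 0.00512), a mean of 37.7% of WT. The level of its partner Mpc2 (ENSMUSG00000026568, chr1:165460637-165481214) was 615, 996, 631 and 442 CPM in WT mice 1 to 4 and 495, 316, 335 and 327 CPM in Ucp1Δ/Δ mice 1 to 4, a log2FC of -0.87 (SE 0.23, adjusted p = 0.0143). Here too WT mouse 2 was highest, and Ucp1Δ/Δ mouse 1 stood above WT mouse 4. The call for Mpc2 was lost without Ucp1Δ/Δ mouse 2 (adjusted p = 0.0539), whereas Mpc1 passed with any mouse left out.

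Pyruvate carboxylase and cytosolic phosphoenolpyruvate carboxykinase, which together lead from pyruvate to the glycerol backbone of triglyceride in adipocytes, fell by similar amounts. Pcx (ENSMUSG00000024892, chr19:4510472-4621752), which makes oxaloacetate from pyruvate, stood at 193, 259, 185 and 142 CPM in WT mice 1 to 4 and 116, 109, 99.9 and 90.1 CPM in Ucp1Δ/Δ mice 1 to 4. Every Ucp1Δ/Δ mouse was below every WT mouse, and the log2FC was -0.91 (SE 0.19, adjusted p = 0.00291). Pck1 (ENSMUSG00000027513, chr2:173153048-173159273), which turns oxaloacetate into phosphoenolpyruvate, stood at 2469, 2940.3, 2525 and 1755 CPM in WT mice 1 to 4 and 1649, 1234, 1177 and 1159 CPM in Ucp1Δ/Δ mice 1 to 4. The genotypes again did not overlap, Ucp1Δ/Δ mouse 1 coming closest to WT mouse 4, and the log2FC was -0.89 (SE 0.19, adjusted p = 0.00343). Pck2, the mitochondrial form of the same enzyme, did not pass, at 43.9, 26.4, 24.4 and 34.4 CPM in WT mice 1 to 4 and 54.8, 44.2, 35.5 and 46.8 CPM in Ucp1Δ/Δ mice 1 to 4, a log2FC of 0.50 (95% interval 0.048 to 0.96, adjusted p = 0.113). It passed without WT mouse 1 (log2FC 0.67, adjusted p = 0.0461) and with scaling by total counts only (0.64, adjusted p = 0.0474).

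Of the 5 genes of the pyruvate dehydrogenase complex, 4 fell, against 7.63% of all genes lower. Dlat (ENSMUSG00000000168, chr9:50634633-50659780), which encodes the E2 core that carries the acetyl group, was at 284, 287, 243 and 201 CPM in WT mice 1 to 4 and 161, 133, 166 and 150.2 CPM in Ucp1Δ/Δ mice 1 to 4. All Ucp1Δ/Δ mice lay below all WT mice, and the log2FC was -0.73 (SE 0.17, adjusted p = 0.00557). Pdha1 (ENSMUSG00000031299, chrX:160122209-160138413), the E1 alpha subunit that the kinases phosphorylate, was at 1275, 1904, 1257 and 813 CPM in WT mice 1 to 4 and 858, 609.9, 838 and 725 CPM in Ucp1Δ/Δ mice 1 to 4. WT mouse 2 was highest, and WT mouse 4 lay below Ucp1Δ/Δ mice 1 and 3. The log2FC of Pdha1 was -0.79 (SE 0.22, adjusted p = 0.0197).

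Pdhb (ENSMUSG00000021748, chr14:8165996-8173025), the E1 beta subunit, was at 581, 505, 511 and 358 CPM in WT mice 1 to 4 and 396, 278, 346 and 275 CPM in Ucp1Δ/Δ mice 1 to 4, a log2FC of -0.59 (SE 0.19, adjusted p = 0.0347), with WT mouse 4 below Ucp1Δ/Δ mouse 1. Dld (ENSMUSG00000020664, chr12:31331277-31351453), the E3 subunit that the oxoglutarate dehydrogenase complex also uses, was at 279, 328, 285 and 219 CPM in WT mice 1 to 4 and 211, 175, 196 and 206 CPM in Ucp1Δ/Δ mice 1 to 4, a log2FC of -0.50 (SE 0.17, adjusted p = 0.0463). The Dld levels of the genotypes did not overlap, but Ucp1Δ/Δ mouse 1 lay just under WT mouse 4. Pdhx, which holds E3 to the core, did not pass, at a log2FC of -0.24 (95% interval -0.59 to 0.10, adjusted p = 0.326). Of these calls that of Dlat passed with any mouse left out. Pdha1 was lost without Ucp1Δ/Δ mouse 2 (adjusted p = 0.0711) or 4 (0.0524), Pdhb without WT mouse 1 (0.103) or 3 (0.084) or Ucp1Δ/Δ mouse 2 (0.114), 3 (0.064) or 4 (0.108), and Dld whenever a mouse other than WT mouse 4 was left out, at an adjusted p of 0.0709 to 0.135. Scaling by total counts only, or asking for at least 10 counts in every mouse, also lost Pdhb (adjusted p = 0.0902 and 0.0593) and Dld (0.142 and 0.0867), and Dld was lost too when any gene with 1 count or more was tested (0.0568) and with the skeletal muscle score as a term (0.0587).

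Of the 3 regulators of the complex that could be tested, 2 fell, against 7.63% of all genes lower. Pdk1 (ENSMUSG00000006494, chr2:71873224-71903858), a kinase that switches the complex off, was at 56.6, 78.8, 67.1 and 47.6 CPM in WT mice 1 to 4 and 28.3, 22.7, 35.9 and 24.9 CPM in Ucp1Δ/Δ mice 1 to 4. Each Ucp1Δ/Δ mouse was below each WT mouse, and the log2FC was -1.17 (SE 0.20, adjusted p = 0.00069). Pdp2 (ENSMUSG00000048371, chr8:104591451-104599026), a phosphatase that switches the complex on, was at 91.3, 81.1, 102 and 83.6 CPM in WT mice 1 to 4 and 45.3, 39.5, 67.3 and 60.9 CPM in Ucp1Δ/Δ mice 1 to 4. It too did not overlap, and its log2FC was -0.75 (SE 0.19, adjusted p = 0.0102), so a kinase and a phosphatase of opposite action were both lower. Without Ucp1Δ/Δ mouse 2 the call for Pdp2 was lost (adjusted p = 0.0505).

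The kinase Pdk2 did not pass, at a log2FC of -0.12 (95% interval -0.51 to 0.27, adjusted p = 0.69). Pdk3 and the phosphatase Pdp1 had too few counts to pass the filter. Pdk3 averaged 1.37 ± 0.791 CPM in WT and 3.08 ± 1.32 CPM in Ucp1Δ/Δ (SD, n = 4 each), and Pdp1 3.14 ± 1.10 CPM in WT and 5.17 ± 1.70 CPM in Ucp1Δ/Δ (SD, n = 4 each). Pdk3 was read at 2 to 12 counts per mouse and Pdp1 at 5 to 18, and both overlapped between the genotypes.

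**Figure D2:**
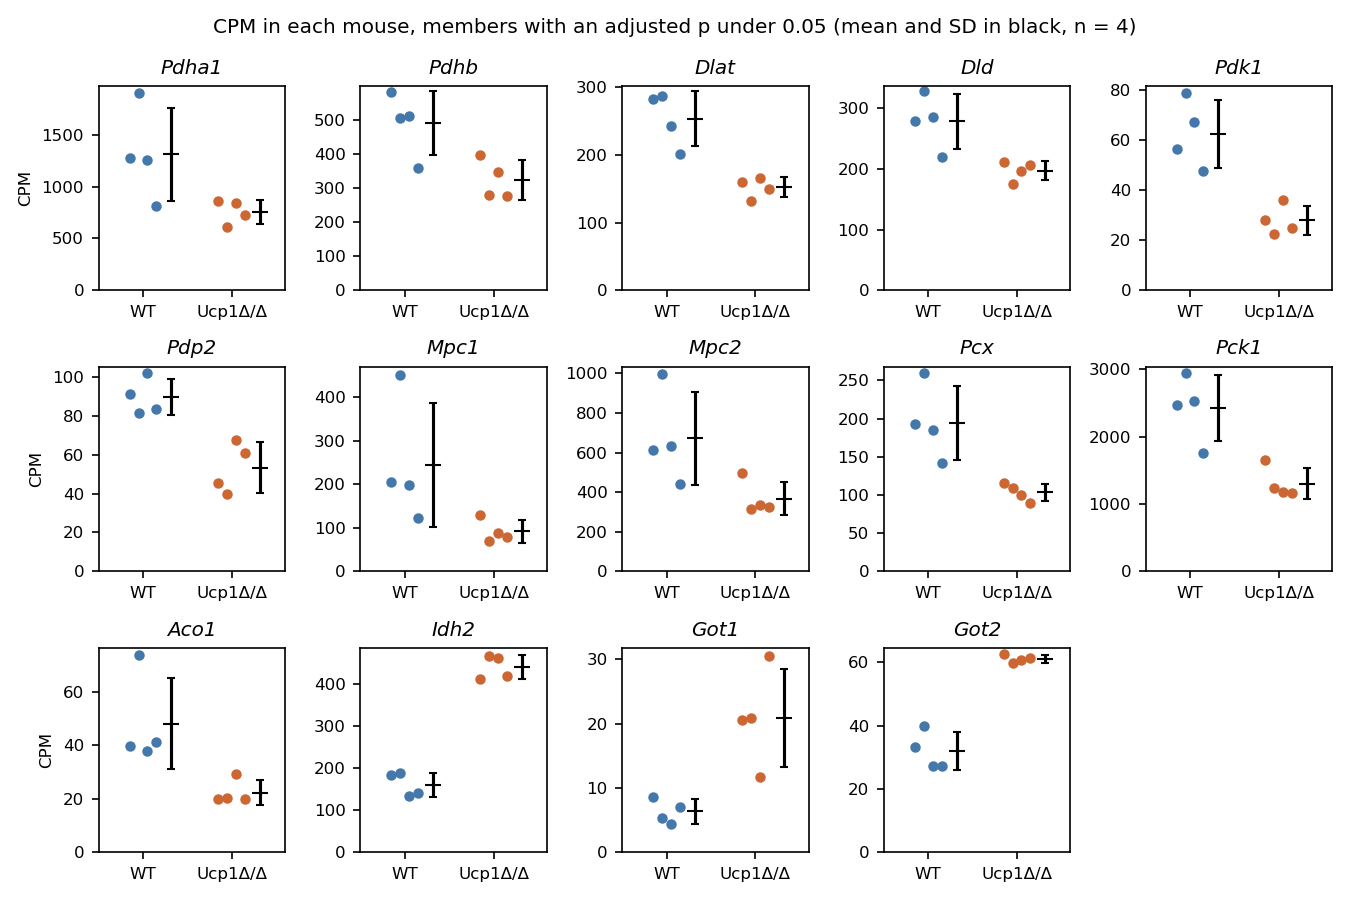
CPM in each mouse (y axis, from 0, a scale of its own per gene) for the 14 genes with an adjusted p under 0.05, by genotype (x axis), with the mean and SD of 4 mice in black. The genotypes are apart for Dlat, Dld, Pdk1, Pdp2, Pcx, Pck1, Aco1, Idh2, Got1 and Got2, and overlap for Pdha1, Pdhb, Mpc1 and Mpc2, where WT mouse 4 is the lowest WT mouse.

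In the first span of the cycle, from citrate to oxoglutarate, 1 gene of 7 rose and 1 fell. Over all genes 13.3% were higher and 7.63% lower. Idh2 (ENSMUSG00000030541, chr7:80094846-80115392) encodes the mitochondrial isocitrate dehydrogenase that makes NADPH, which serves antioxidant defence, and it can also run from oxoglutarate back towards citrate. Its level was 183, 187, 133 and 139.8 CPM in WT mice 1 to 4 and 410.4, 466, 461 and 418 CPM in Ucp1Δ/Δ mice 1 to 4. All 4 Ucp1Δ/Δ mice lay far above all 4 WT mice, and mice of 1 genotype lay close together. The log2FC was 1.45 (SE 0.17, adjusted p = 2.2e-05), a mean 2.73-fold that of WT, and its adjusted p was the smallest among the 31 genes.

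Aco1 (ENSMUSG00000028405, chr4:40143081-40198338), the cytosolic aconitase that doubles as an iron-regulatory protein, was at 39.8, 73.5, 37.7 and 41.0 CPM in WT mice 1 to 4 and 19.8, 20.2, 29.3 and 19.7 CPM in Ucp1Δ/Δ mice 1 to 4. WT mouse 2 stood well above the other WT mice and Ucp1Δ/Δ mouse 3 above the other Ucp1Δ/Δ mice, and the genotypes did not overlap. Its log2FC was -1.11 (SE 0.24, adjusted p = 0.00348). The other 5 did not pass. Citrate synthase (Cs), which opens the cycle, had a log2FC of -0.19 (95% interval -0.53 to 0.14), and the cytosolic NADP-dependent Idh1 one of 0.079 (-0.29 to 0.45). The 3 subunits of the NAD-dependent isocitrate dehydrogenase had log2FC of -0.062 for Idh3a, -0.39 for Idh3b and -0.071 for Idh3g, with intervals that all held 0. Idh3b overlaps Nop56 on the other strand at an exon (382 counts over the 8 mice), as Ldhd does Znrf1 (228), and without the strand setting, not given in the sources used here, their reads cannot be told apart. Pdha1, Mdh1 and Pck2 overlap genes with 6, 17 and 0 counts, and Got2 and Mpc1 overlap genes of the other strand (Gm45760 and 4930506C21Rik) whose counts were not analysed here.

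None of the 8 genes of the second span, from oxoglutarate to oxaloacetate, passed the test, although all but Suclg2 were read at 169 CPM or more in every mouse. Their log2FC ran from -0.22 to -0.07 and their adjusted p from 0.469 up. These are the oxoglutarate dehydrogenase subunits Ogdh (-0.072) and Dlst (-0.19), the succinyl-CoA ligase subunits Sucla2 (-0.18), Suclg1 (-0.14) and Suclg2 (-0.072), fumarase Fh1 (-0.18), and the cytosolic and mitochondrial malate dehydrogenases Mdh1 (-0.22) and Mdh2 (-0.079). The 95% intervals of the 8 reached from -0.79 to 0.39 at their outermost, so larger changes than these lie outside all 8. Mdh1 varied most within WT, from 272.5 CPM in mouse 4 to 745 CPM in mouse 2. Differences between the 2 spans, or between the cycle and the pyruvate genes, were not tested.

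**Figure D3:**
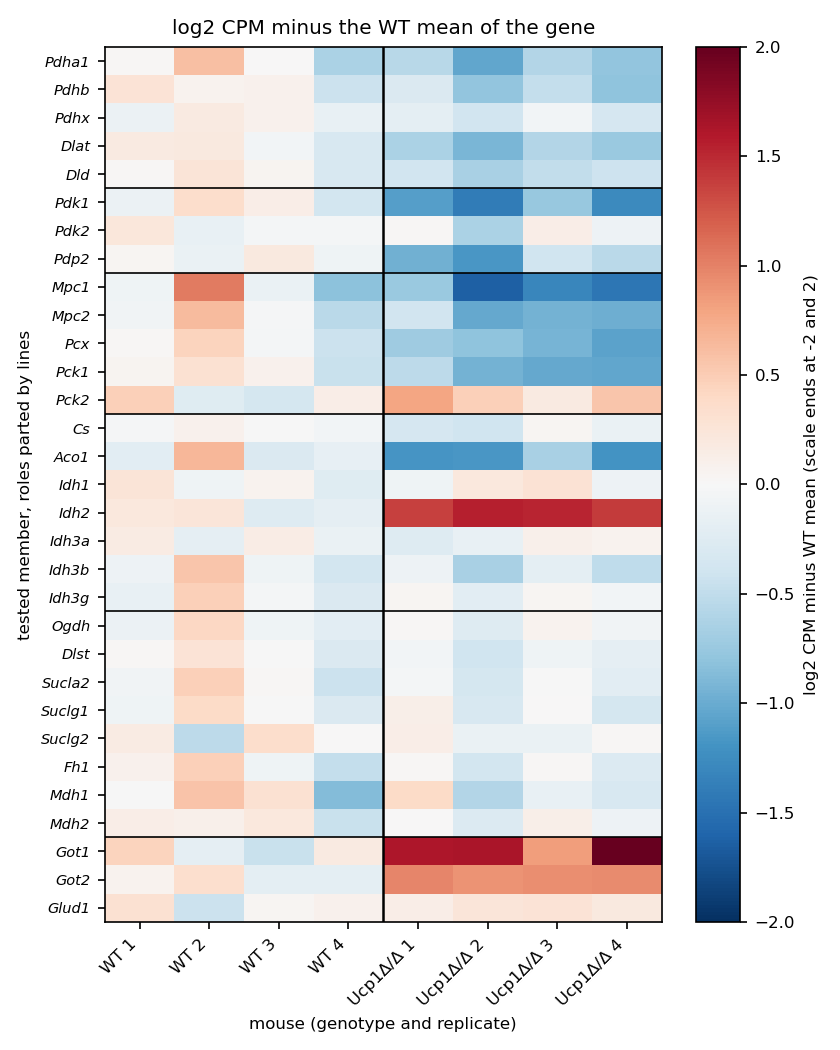
Log2 CPM minus the gene's WT mean (colour, from -2 to 2) for the 31 genes tested (rows, by role) in each of the 8 mice (columns). Within WT, mouse 2 is above the WT mean for 23 genes and mouse 4 for 4, while Idh2, Got1 and Got2 are above it in all 4 Ucp1Δ/Δ mice.

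Of the genes that link the cycle to amino acids, both aspartate transaminases rose. These enzymes exchange oxaloacetate and glutamate for aspartate and oxoglutarate, and as a cytosolic and mitochondrial pair they belong to the malate-aspartate shuttle. Got1 (ENSMUSG00000025190, chr19:43499752-43524605), the cytosolic form, was at 8.67, 5.38, 4.34 and 7.09 CPM in WT mice 1 to 4 and 20.5, 20.8, 11.7 and 30.5 CPM in Ucp1Δ/Δ mice 1 to 4. The gene was read at only 12 to 17 counts in WT mice, against 28 to 71 in Ucp1Δ/Δ mice, and every Ucp1Δ/Δ mouse was above every WT mouse. Its log2FC was 1.74 (SE 0.31, adjusted p = 0.000868). Got2 (ENSMUSG00000031672, chr8:95864134-95888547), the mitochondrial form, was at 33.1, 39.9, 27.4 and 27.4 CPM in WT mice 1 to 4 and 62.6, 59.7, 60.6 and 61.4 CPM in Ucp1Δ/Δ mice 1 to 4. The 4 Ucp1Δ/Δ mice were close to each other, and all stood above the highest WT mouse. Its log2FC was 0.94 (SE 0.17, adjusted p = 0.00109).

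Glud1, the glutamate dehydrogenase that also feeds oxoglutarate, did not pass, at a log2FC of 0.19 (95% interval -0.19 to 0.56, adjusted p = 0.507). Markers of macrophages and fibroblasts were higher in the same mice, as given above, and their part in the rise of Got1, Got2 and Idh2 was not tested. Within WT, Got1 and skeletal muscle RNA both had the order mouse 1, 4, 2 and 3, Got1 at only 12 to 17 counts. In Ucp1Δ/Δ mouse 3 was the lowest for both, but Got1 was highest in mouse 4 and skeletal muscle RNA in mouse 2. These orders are a description only. With the skeletal muscle score as a term the log2FC was 1.55 for Got1 (adjusted p = 0.000248), 0.94 for Got2 (0.000875) and 1.43 for Idh2 (3.85e-06). With the brown adipocyte score as a term it was 1.57, 1.01 and 1.49 in the same order.

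Related genes were also set against each other within each mouse, as the log2 ratio of their counts, which does not depend on how libraries are scaled. The 7 pairs were chosen after the values of their genes were seen, so the ratios are a description, and since counts were not divided by length only the difference between genotypes is read. The log2 ratio of Idh2 to Idh1 was 0.78, 1.15, 0.51 and 0.90 in WT mice 1 to 4 and 2.30, 2.17, 2.07 and 2.33 in Ucp1Δ/Δ mice 1 to 4, a mean difference of 1.38 with no overlap. That of Pck2 to Pck1 was -5.82, -6.80, -6.69 and -5.67 in WT mice 1 to 4 and -4.91, -4.80, -5.05 and -4.63 in Ucp1Δ/Δ mice 1 to 4, a difference of 1.40 with no overlap. In both pairs the mitochondrial form thus had a larger share in Ucp1Δ/Δ mice.

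The ratio of the kinase Pdk2 to Pdk1 was 2.84, 1.98, 2.33 and 2.83 in WT mice 1 to 4 and 3.64, 3.31, 3.40 and 3.70 in Ucp1Δ/Δ mice 1 to 4, higher by 1.01 without overlap. That of Mpc2 to Mpc1 was 1.58, 1.15, 1.68 and 1.85 in WT mice 1 to 4 and 1.93, 2.18, 1.93 and 2.04 in Ucp1Δ/Δ mice 1 to 4, higher by 0.46, with WT mouse 4 just under the Ucp1Δ/Δ mice and WT mouse 2 the farthest from them. The remaining pairs overlapped between the genotypes, with differences of -0.73 for Got2 to Got1, 0.10 for Mdh2 to Mdh1 and 0.12 for Suclg2 to Sucla2.

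**Figure D4:**
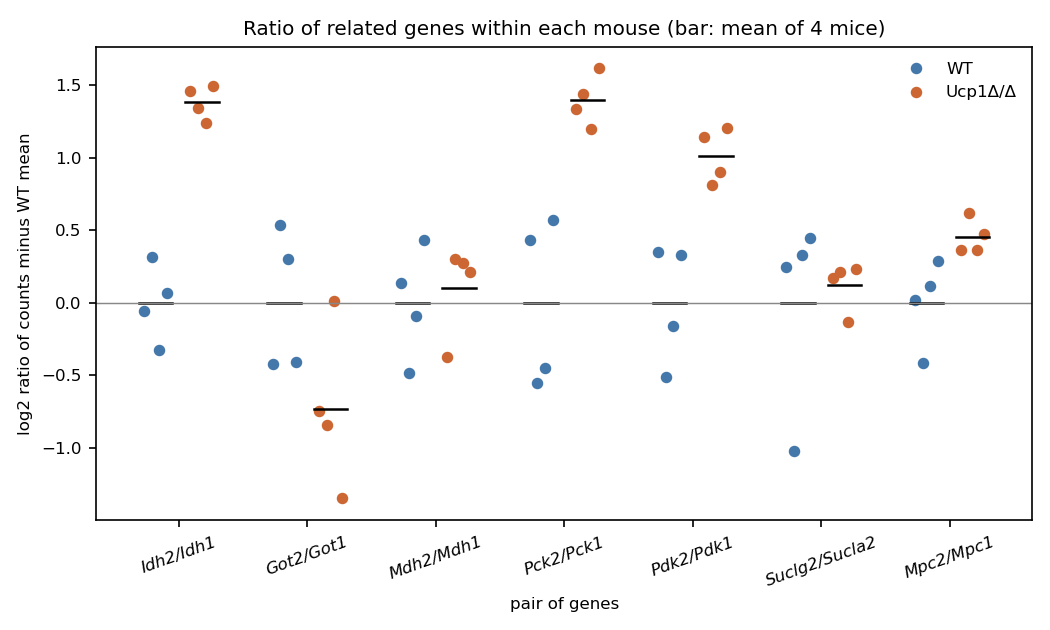
Log2 ratio of the counts of paired genes within each mouse, minus the WT mean of that pair (y axis), for 7 pairs (x axis), with a bar at the mean of 4 mice. The Ucp1Δ/Δ mice lie above all WT mice for Idh2/Idh1, Pck2/Pck1, Pdk2/Pdk1 and Mpc2/Mpc1, and overlap with WT for the other 3 pairs.

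Summed over the 33 genes, the level was 14800 CPM in WT mouse 1, 18512 CPM in mouse 2, 14947 CPM in mouse 3 and 11266 CPM in mouse 4, against 13064 CPM, 10340.5 CPM, 12559 CPM and 11209 CPM in Ucp1Δ/Δ mice 1 to 4. WT mouse 4 thus lay among the Ucp1Δ/Δ mice. Ordered from high to low, the summed brown adipocyte markers gave WT mice 2, 3 and 1, then Ucp1Δ/Δ mice 1, 3 and 4, WT mouse 4 and Ucp1Δ/Δ mouse 2, and the 33 genes gave the same order but for WT mouse 4 standing above Ucp1Δ/Δ mouse 4. Both sums come from the same libraries, share their depth and weigh abundant genes most. By the mean log2 CPM of the same markers the order was WT mice 2 (7.89), 3 (7.77) and 1 (7.41), Ucp1Δ/Δ mice 3 (7.40), 1 (7.37), 4 (7.17) and 2 (6.95), and WT mouse 4 (6.78), which thus came last.

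With the mean log2 CPM of the brown adipocyte markers as a term, a fit added after the data were seen, the median log2FC of the 31 genes was -0.083 in place of -0.19. In that fit 3 genes were higher, against 14.3% of all genes, and 10 lower, against 7.92%, Dld being the call that was lost (adjusted p = 0.058). The log2FC shrank for the carrier, to -0.97 for Mpc1 (adjusted p = 0.0027) and -0.62 for Mpc2 (0.0116), and for the complex, to -0.52 for Pdha1 (0.0105). The score is itself measured after the deletion, and 4 of its 12 genes were lower in Ucp1Δ/Δ mice.

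**Figure D5:**
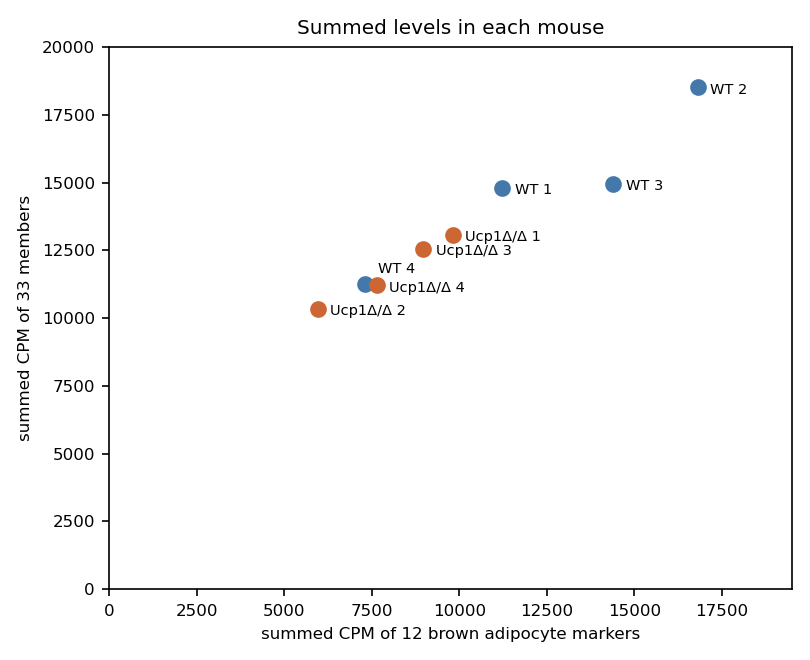
Summed CPM of the 33 genes (y axis) against summed CPM of the 12 brown adipocyte markers (x axis), 1 point per mouse, coloured by genotype, both axes from 0. WT mice 1, 2 and 3 lie above the 4 Ucp1Δ/Δ mice on both axes, and WT mouse 4 lies beside Ucp1Δ/Δ mouse 4.

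The spread between mice was wider in WT. The coefficient of variation of CPM over 4 mice had a median over the 31 genes of 20.3% in WT and 14.2% in Ucp1Δ/Δ, and was larger in WT for 27 of the 31, or 87.1%, against 68.0% of all genes. WT mouse 2 was above the WT mean in 23 of the 31 genes and WT mouse 4 in 4 of them.

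Of 30 other genes of the pathway, listed by function with earlier results of these data known, 26 were tested, 1 rose and 7 fell, against 13.3% and 7.63% of all genes, and their median log2FC was -0.33. Slc25a1, the mitochondrial citrate carrier, was at 343, 305, 295 and 262 CPM in WT mice 1 to 4 and 122, 92.4, 89.4 and 88.0 CPM in Ucp1Δ/Δ mice 1 to 4, a log2FC of -1.62 (SE 0.17, adjusted p = 9.47e-06). Acly, which cleaves cytosolic citrate to acetyl-CoA, was at 670.0, 422, 336 and 279 CPM in WT mice 1 to 4 and 139.7, 111, 111 and 97.4 CPM in Ucp1Δ/Δ mice 1 to 4, a log2FC of -1.89 (SE 0.25, adjusted p = 5.3e-05). Me1, the cytosolic malic enzyme that returns malate to pyruvate with NADPH, was at 343, 186, 223 and 249 CPM in WT mice 1 to 4 and 142, 108, 105 and 102 CPM in Ucp1Δ/Δ mice 1 to 4, a log2FC of -1.13 (SE 0.20, adjusted p = 0.000841). No Ucp1Δ/Δ mouse reached the WT range of any of the 3.

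Glul, glutamine synthetase, was at 3989, 2868, 3033 and 3819 CPM in WT mice 1 to 4 and 1314, 1229.7, 943 and 1366 CPM in Ucp1Δ/Δ mice 1 to 4. Its genotypes did not overlap, and its log2FC was -1.50 (SE 0.18, adjusted p = 3.31e-05). Acss1, the mitochondrial acetyl-CoA synthetase, also fell, with a log2FC of -0.65 (SE 0.20, adjusted p = 0.029), as did Ldhd, the D-lactate dehydrogenase, with -0.54 (SE 0.17, adjusted p = 0.0373). The call for Ldhd was lost whenever a mouse other than WT mouse 2 or Ucp1Δ/Δ mouse 4 was left out (adjusted p = 0.0648 to 0.147), and that for Acss1 without WT mouse 1 or Ucp1Δ/Δ mouse 2, 3 or 4 (0.0676 to 0.0967).

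The 4 subunits of succinate dehydrogenase, which oxidises succinate within the cycle, did not pass, with log2FC of -0.29 for Sdha, -0.16 for Sdhb, -0.19 for Sdhc and -0.30 for Sdhd. The kinase Pdk4, which rises in fasting, had a log2FC of 0.071 (95% interval -0.30 to 0.44). Lactate dehydrogenase A (Ldha), at -0.65, missed the threshold (adjusted p = 0.0758). Ogdhl, Me2, Gls2 and Slc25a13 were under the filter. The number of lower genes in this list was 4 without WT mouse 1 or Ucp1Δ/Δ mouse 2, and the number of higher genes was 2 without WT mouse 1.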

How the data were processed

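BAT of 4 WT and 4 Ucp1Δ/Δ mice was profiled by bulk digital mRNA-seq from a single end. The authors trimmed, aligned to mm10 and counted reads per Ensembl gene, and deposited whole-number counts without normalization. The paper's methods name bbduk, STAR and HTseq-counts, whereas the submitters' processing notes name Trimmomatic, HISAT2 and DESeq2. The annotation release and strand setting are not given in the sources used here. The authors also deposited log2 values, which equal log2 of the count over 1 factor per mouse plus 1, and these were not used for results. Of 31053 identifiers, 30934 had a symbol in GENCODE annotation of mm10.

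Counts were filtered with filterByExpr and scaled by TMM, and genotype alone was tested with edgeR 4.0.16 (limma 3.58.1, R 4.3.3) by quasi-likelihood with Benjamini-Hochberg adjustment over 8930 genes at 0.05. Standard errors (SE) were derived from the log2FC and its F statistic, and 95% intervals from them. CPM was computed on TMM-adjusted library sizes (prior count 2 for log2 CPM). Depth was 2017697 to 3115956 counts per mouse, and limits from 3 counts cover counting error only. The chi-square per gene between mice of a genotype was 4.69 to 23.2, where counting alone gives 1, so no library was treated as a duplicate. The scripts were tested on simulated counts. At an adjusted p under 0.05, 60.6% of genes given a log2 change of 1 were recovered, and 100% of those given 2. A gene that did not pass may therefore still have changed.

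The genes and lists were chosen with earlier results of these data known. By the rule for naming genes, all 33 are accounted for, each with an adjusted p under 0.05 is given in every mouse, and of the 30 further genes those with an adjusted p under 0.05 are named except a few that are counted but not reported here by name, besides which the Sdh genes, Pdk4 and Ldha were named after their values were seen. Alternatives were other scaling (DESeq2 size factors, total counts only, mitochondrially encoded genes removed), other tests (DESeq2 1.42.0, limma voom), filters, the replicate number as a block, marker scores as terms, a log2FC threshold of 1, and each mouse left out. The mice are separate samples in the labels, and p-values measure the spread between them.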

Additional observations from a re-analysis of the deposited data

Results flagged for a closer look

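Over 64 groups examined (4 mice of a genotype for each of 31 genes and for Pnpla2), 3 held a mouse that stood apart by Dixon's ratio of the gap to the range, against 3.2 that chance alone gives at this threshold. For Mpc2, Ucp1Δ/Δ mouse 1 stood apart with a ratio of 0.874, with 8.95 on the log2 CPM scale, the other Ucp1Δ/Δ mice lying at 8.31 to 8.39. For Aco1, WT mouse 2 had a ratio of 0.875, at 6.21 against 5.27 to 5.39 in the other WT mice, and Ucp1Δ/Δ mouse 3 had a ratio of 0.939, at 4.91 against 4.36 to 4.39. Aco1 was lower in every fit that left out 1 mouse, with an adjusted p of 0.00512 without WT mouse 2 and 0.00276 without Ucp1Δ/Δ mouse 3, and Mpc2 had an adjusted p of 0.0081 without Ucp1Δ/Δ mouse 1.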

How the results depend on the processing

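The 9 calls for Dlat, Pdk1, Mpc1, Pcx, Pck1, Aco1, Idh2, Got1 and Got2 held under every alternative with a test at an adjusted p of 0.05, and 15 of the 31 genes kept direction and side of the threshold throughout. Scaling by total counts only moved the median of all genes from -0.0087 to 0.13 and that of the 31 genes to -0.056, gave 404 lower genes in all and 4 in the further list, and put above 0 Pdk2 (0.0059), Idh3a (0.074), Idh3g (0.069), Ogdh (0.067), Suclg2 (0.061) and Mdh2 (0.055), all within that shift. At least 10 counts in every mouse gave 746 higher and 449 lower genes and 4 lower in the further list, with Idh3a at 0.0053 and Idh3g at 0.0013. At least 1 count in any mouse, like DESeq2's Wald test, gave 2 higher genes in the further list. Limma voom gave Idh3g 0.021 and Ogdh 0.012. With the brown adipocyte score, Idh3g (0.076), Ogdh (0.046), Sucla2 (0.0087), Fh1 (0.016), Mdh1 (0.16) and Mdh2 (0.071) were above 0. At an absolute log2FC above 1, 3 of the 31 genes and 227 in all were lower. With 1 mouse left out, lower genes numbered 6 to 11 of the 31, 4 to 10 in the further list and 400 to 851 in all, higher genes in the further list 1 to 2, and the log2FC ran from -0.21 to 0.019 for Pdk2, -0.0080 to 0.16 for Idh1, -0.13 to 0.0038 for Idh3a, -0.17 to 0.10 for Idh3g, -0.15 to 0.078 for Ogdh and -0.24 to 0.054 for Suclg2. None of these genes that turned passed the test in the values reported, and where no construction shows it the cause was not tested. Whether the replicate numbers pair mice is not given in the sources used here. Deviations of same-numbered mice correlated at -0.087, -0.20, 0.30 and 0.24, which cannot settle it, since pairing is a matter of design. With the replicate block 3 of the 31 genes were higher and 10 lower, Dld being left uncalled (adjusted p = 0.0794), with 1138 and 581 in all. Depth left Pdk3 and Pdp1 untested.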
